A study of Mus musculus with 37 samples.

Results

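The cytosolic ribosomal protein genes encode the proteins that, with ribosomal RNA, build the small and large subunits of the ribosome. Members were the protein-coding genes of the GENCODE M21 annotation whose symbols follow the Rpl, Rps, Rplp and Rpsa naming pattern, and 83 of the 55536 genes in each count table met it. Counting filters left 81 of them for testing in liver and 80 in cortex. Rpl10l and Rpl39l were left out in both tissues and Rpl3l in cortex as well. The pattern does not take in a few ribosomal proteins with other names, such as Fau and Rps3a1, which are described with the related genes.

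RNA sequencing was done on liver and cortex of mice at 10 months of age, and the series asks what TMEM106B deficiency and the TDP-43 Q331K change do to expression in both organs. The combined genotype, TMEM106B-/- TDP-43Q331K, lacks the lysosomal membrane protein TMEM106B and carries the Q331K change in the RNA-binding protein TDP-43. It had 4 liver and 5 cortex libraries. TMEM106B-/- had 4 liver and 5 cortex libraries, TDP-43Q331K (per the title a knock-in mouse model) had 4 and 6, and WT had 4 and 5. Beyond the genotypes, the labels state no strain, no allele design and no pooling, and they do not say whether each library is a separate animal, so the p-values cover no more than the spread among the libraries, which may be technical.

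Liver libraries held 50.5 to 74.1 M counts and cortex libraries 28.8 to 46.3 M. Hepatocyte markers summed to between 93200 and 139000 CPM (counts scaled to library size, not to gene length) in liver and cortical neuron markers to between 6020 and 7520 CPM in cortex, while neuron markers reached at most 1.49 CPM in liver. Tmem106b RNA was not lower with its label. In liver it averaged 135 ± 9.15 CPM in the combined genotype, 115 ± 9.32 in TMEM106B-/-, 91.9 ± 21.3 in TDP-43Q331K and 96.5 ± 16.3 in WT (SD, n = 4 each). In cortex it lay between 179 and 216 CPM in the combined genotype, 177 and 194 in TMEM106B-/-, 171 and 190.0 in TDP-43Q331K, and 183 and 193 in WT. Directions for TMEM106B loss therefore rest on the labels, and whether the counted part of the gene lies in the deleted part was not analysed here.

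Ribosomal proteins are made in near equal amounts, and their mRNAs are among the most abundant of a cell. In mammals these mRNAs begin with a run of pyrimidines, the 5′ terminal oligopyrimidine (TOP) tract, through which mTOR signalling and LARP1 set their translation and stability. Liver is a major site of protein secretion, and neurons translate both in the cell body and near synapses.

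Runs of pyrimidines, the letters of a TOP tract, stand in the DNA near the annotated gene starts of members that differ between genotypes below. The 60 bases from 40 before the start to 20 after it are printed 5′ to 3′ on the gene's strand, with the run of C and T bases in capitals (RefSeq promoters, GRCm38.p6). They are shown for members called in liver, in cortex or in both. In Rpl19 and Rps15a the run lies wholly before the annotated start, so it is not shown to be part of the mRNA.
Rpl35a, chr16:33056442-33056501, plus strand: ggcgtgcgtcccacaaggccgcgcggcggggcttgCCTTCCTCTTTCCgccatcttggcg
Rpl18, chr7:45718031-45718090, plus strand: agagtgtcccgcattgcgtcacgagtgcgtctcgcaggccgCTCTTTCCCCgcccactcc
Rpl19, chr11:98026884-98026943, plus strand: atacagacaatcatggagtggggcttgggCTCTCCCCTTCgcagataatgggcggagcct
Rps18, chr17:33955646-33955705, minus strand: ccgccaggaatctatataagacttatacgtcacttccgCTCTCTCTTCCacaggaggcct
Rps15a, chr7:118116128-118116187, minus strand: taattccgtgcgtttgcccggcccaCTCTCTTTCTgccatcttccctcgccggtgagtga
Rpl15, chr14:18270967-18271026, minus strand: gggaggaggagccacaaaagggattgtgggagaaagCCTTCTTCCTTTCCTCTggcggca

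A promoter was found for 63 of the 83 members. A run of at least 8 C or T bases, on the sense strand and touching the 20 bases either side of the start, was present in 33 of them, or 52.4%, against 23.7% of 27025 genes with a promoter. CTTTCC on the sense strand within 20 bases of the start, which such a run can contain, was found in 17.5% of member promoters and 2.3% of all. CCGGAAG, the core of ETS factor sites, was searched on both strands over 300 bases and found in 39.7% of member promoters and 9.93% of all. ATGGCG, part of YY1 sites, was found on either strand over the same length in 33.3% and 10.2%. TATAAA on the sense strand, 20 to 40 bases before the start, was found in 1.59% and 2.25%. Of the members called in the combined genotype against WT, the run was present in 12 of 17 with a promoter in liver and 6 of 7 in cortex. These matches describe letters in these windows and do not show binding.

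Levels were compared between members as TPM, the level per length: counts divided by the length of a gene's merged exons and scaled to the same total in every library. The median tested member stood at 133 TPM in cortex and 181 TPM in liver, where the median of all tested genes was 11.1 TPM in cortex and 3.67 TPM in liver. Among the 500 genes with the highest TPM were 22 members in cortex and 38 in liver. Rplp1, an acidic protein of the stalk that recruits translation factors, had the highest level in both tissues, at 1012 ± 147.9 TPM in cortex (SD, n = 21) and 1299 ± 160.2 in liver (n = 16). In liver it was followed by Rps2, a protein at the mRNA entry of the small subunit, at 1146 ± 104.3 TPM and by Rps15 at 950.7 ± 63.35. Rplp1 and Rps2 differed by less than the sum of their SDs. Rpl36 (718.4 ± 82.59), Rpl7a (625.3 ± 41.44) and Rpl4 (524.4 ± 57.1), all of the large subunit, came next. In cortex Rps15 (855.4 ± 56.92), Rpl38 (632.6 ± 24.37), Rpl36 (554.9 ± 38.95), Rpl29 (386.8 ± 28.27) and Rps29 (365.9 ± 59.42) followed Rplp1, and the last 2 overlapped in their SDs. With annotated transcript length in place of merged exons, Rps2 ranked first in liver and Rps15 in cortex.

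The order of members was similar in both tissues (Spearman 0.782 over 80 genes, which share libraries within a tissue). The tissues were tabulated separately, and tissue, table and sequencing cannot be told apart, so the ratio of levels is a description. The median cortex to liver ratio of TPM was 0.649, and 67 of 80 members were lower in cortex. Rpl38, a large subunit protein whose loss alters axial patterning in mice, went the other way with a ratio of 3.46. Rps29 had a ratio of 2.25, Rpl41 1.87 and Rps15a 1.8. At the low end were Rpl18 at 0.152, Rps18 at 0.202 and Rpl11, part of the 5S particle that binds Mdm2, at 0.203. Rpl19, a large subunit protein often used as a reference gene in PCR, was at 79.25 ± 12.83 TPM in cortex and 181.3 ± 23.93 in liver.

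Rps27l, a near copy of the small subunit gene Rps27 that p53 induces in human cells, showed the lowest ratio of all tested members. Rps27l stood at 10.34 ± 1.634 TPM in cortex and 310.6 ± 28.01 in liver, a cortex to liver ratio of 0.0333. Rps27 ran the opposite way, at 295.2 ± 32.03 TPM in cortex and 171 ± 34.05 in liver. Their coding sequences are both 252 bases long and 76.2% identical, and 18 of the first 60 coding bases differ. Those 60 bases (GENCODE M21, each joined across exons) are shown because the counts depend on telling the copies apart, with differing bases in capitals.
Rps27, chromosome 3: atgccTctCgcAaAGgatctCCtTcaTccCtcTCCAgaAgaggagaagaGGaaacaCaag
Rps27l, chromosome 9: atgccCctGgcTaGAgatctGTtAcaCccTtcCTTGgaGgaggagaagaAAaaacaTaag
Of the 50-base windows of coding sequence, 90.6% in Rps27 and 29.4% in Rps27l also occur in the transcripts of other genes.

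**Figure D1:**
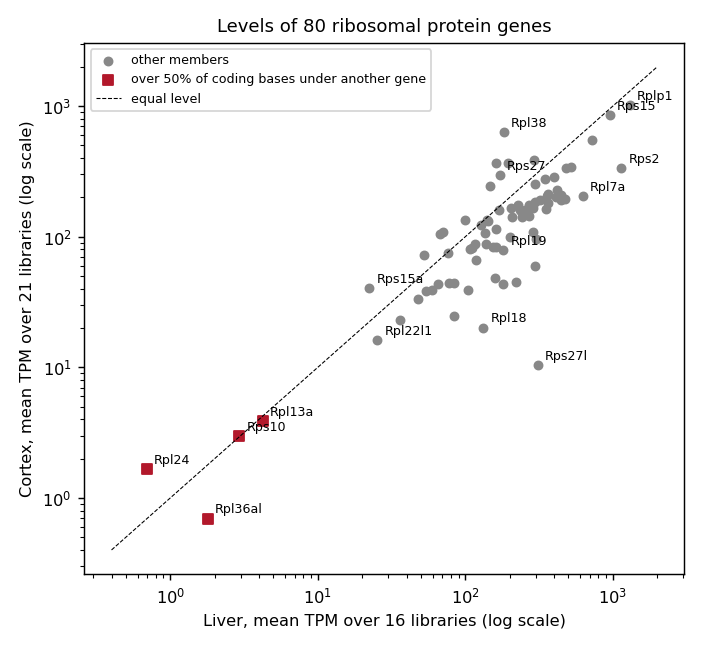
Mean TPM of the 80 members tested in both tissues, liver on the horizontal axis (16 libraries) and cortex on the vertical axis (21 libraries), both on log scales, with 1 point a gene and the dashed line marking equal levels. Most points lie below the line, Rps27l lies farthest below it, and the 4 squares at the lower left are members whose coding bases lie mostly under another annotated gene.

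The paralogs of other members were low. Rpl39l, a testis form of the exit tunnel protein Rpl39, had 6 counts over all cortex libraries and 11 over all liver libraries, and Rpl10l, the testis form of Rpl10, had 0 counts in both. Rpl3l, the muscle form of Rpl3, was at 0.311 TPM in cortex and 0.221 TPM in liver. Rpl22l1, the paralog of Rpl22, was at 16.14 ± 2.362 TPM in cortex and 25.37 ± 5.786 in liver. The coding sequences of Rpl39 and Rpl39l are 85% identical and differ at 4 of the first 60 bases, shown in capitals.
Rpl39, chromosome X: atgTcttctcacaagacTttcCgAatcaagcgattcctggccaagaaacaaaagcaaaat
Rpl39l, chromosome 16: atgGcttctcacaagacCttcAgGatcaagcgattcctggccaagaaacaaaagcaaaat

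A set of 4 members was low for its kind and shared an annotation feature. Rpl13a (4.231 ± 1.309 TPM in liver), Rps10 (2.946 ± 0.6537), Rpl36al (1.795 ± 0.7455) and Rpl24 (0.695 ± 0.321) were the lowest of the tested liver members but for Rpl3l. In each, between 80.1% and 95.3% of coding bases lie under another annotated gene on the same strand, and in no other member did the share pass 50%. The overlapping genes are Gm45713 with Mir5121, RPS10-NUDT3, Gm49383 and Gm28037. Reads in such stretches are ambiguous for many counting programs, so the levels of these 4 members are uncertain. No label or file names the counting program or its strand setting. Sequence shared with other genes is common in the family. All coding windows of 50 bases were shared in 21 members, Rpl19 among them, and 80 members shared a window with a pseudogene. Named ribosomal protein pseudogenes received 0.28 to 0.4 counts per 100 member counts in liver libraries and 0.662 to 0.813 in cortex libraries.

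In liver, the combined genotype had lower ribosomal protein RNA than WT. Of 81 members 20 fell and none rose by edgeR, with 2.85% of all tested genes called lower and 4.19% called higher (7.04% in either direction). A log2 fold change below 0 was found for 79 of 81 members, with a median of -0.332 where that of all genes was -0.029. Members made up 1.67%, 1.4%, 1.47% and 1.4% of all counts in the combined genotype, 1.49%, 1.63%, 1.52% and 1.78% in TMEM106B-/-, 1.58%, 1.62%, 1.45% and 1.49% in TDP-43Q331K, and 1.64%, 1.87%, 1.74% and 1.81% in WT. The combined genotype's first library overlapped WT and its other 3 lay below every WT library. Taken singly, 20 of 81 members did not overlap WT in the combined genotype, where 14.6% of all genes did not. In bulk tissue, fewer cells of a type and less RNA per cell cannot be told apart.

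**Figure D2:**
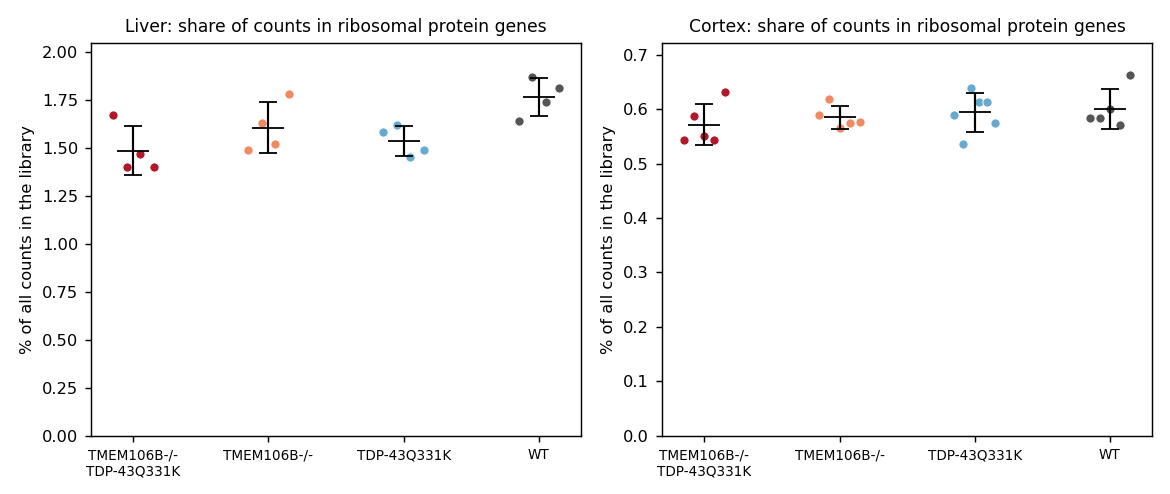
Share of all counts that fell in ribosomal protein genes, in percent, for each liver (left) and cortex (right) library; points are libraries, and the horizontal bar and whiskers are the mean and SD of a genotype. In liver 3 of 4 libraries of the combined genotype lie below all WT libraries, and in cortex the genotypes overlap.

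Rpl35a, a large subunit protein, had the smallest p. Its level was 145, 98, 117 and 127 CPM in the combined genotype, 142, 132, 138 and 137 in TMEM106B-/-, 137, 149.9, 118 and 117 in TDP-43Q331K, and 164, 213, 163 and 201 in WT. Every library of the other 3 genotypes lay below every WT library, and against WT the combined genotype was 1.52-fold lower (log2 fold change -0.61 ± 0.13 SE, edgeR adjusted p = 0.00841). Rps20, of the small subunit head, had 101, 68.4, 78.2 and 72.5 CPM in the combined genotype, 90.6, 94.8, 90.2 and 94.4 in TMEM106B-/-, 96, 92, 75.7 and 78.7 in TDP-43Q331K, and 102, 136, 111 and 128 in WT. It too lay below all WT libraries in the other 3 genotypes, with a log2 fold change of -0.57 ± 0.13 in the combined genotype (edgeR adjusted p = 0.0117).

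Rps29, a zinc-binding protein of the small subunit, showed the steepest fall. It had 54.1, 24.8, 38.6 and 42.8 CPM in the combined genotype, 52.2, 60.4, 52.5 and 61.4 in TMEM106B-/-, 54.7, 53.9, 35.4 and 40.6 in TDP-43Q331K, and 51.6, 88.8, 69.6 and 93.4 in WT. The lowest WT library overlapped the combined genotype, which was 1.89-fold lower on average (-0.92 ± 0.22, edgeR adjusted p = 0.0175). Rpl19, which sits near the exit tunnel, had 83, 67.6, 74.8 and 80.2 CPM in the combined genotype, 92, 93.8, 80.2 and 86.4 in TMEM106B-/-, 79, 90.6, 88.9 and 92.2 in TDP-43Q331K, and 85.8, 119, 94.7 and 122 in WT. The combined genotype did not overlap WT and was 1.38-fold lower (-0.46 ± 0.11, edgeR adjusted p = 0.0223).

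The falls were spread over both subunits. In the large subunit 12 of 50 members fell (median -0.328) and in the small subunit 8 of 31 (median -0.385). By role, with each member listed under 1 role only, 4 of 9 exit tunnel proteins fell (Rpl19, Rpl26, Rpl35 and Rpl39). So did 2 of 3 in the decoding and head group (Rps18 and Rps23), which leaves out other head proteins such as Rps20. Falls also included 1 of 3 beak proteins (Rps12) and 1 of 2 proteins of the 5S particle (Rpl11). None of 4 stalk proteins or 3 mRNA entry proteins passed the edgeR threshold, with 2 and 1 at an unadjusted p under 0.05. Rplp1 had a log2 fold change of 0.01 ± 0.13 in liver, and the mRNA entry protein Rps2 was at 0.10 ± 0.10; these were the 2 members above 0. Rps18 (-0.43 ± 0.11), Rps23 (-0.54 ± 0.14), Rpl26 (-0.40 ± 0.11), Rpl34 (-0.45 ± 0.12) and Rpl39 (-0.65 ± 0.18) fell by similar amounts, and Rpl18 fell least (-0.32 ± 0.09). Rps21, a small subunit protein, was at 48.7, 26.7, 38.6 and 38.8 CPM in the combined genotype and at 49.3, 80.3, 67 and 83.4 in WT (-0.87 ± 0.23). Rpl13a also fell (-0.89 ± 0.23), but from the low and uncertain counts described above, 2.46 to 4 CPM in the combined genotype and 3.75 to 6.88 CPM in WT. Of the paralogs, Rpl22l1 fell (-0.56 ± 0.16, edgeR adjusted p = 0.0482), at 19.7, 16.9, 18 and 18.6 CPM in the combined genotype and 24.6, 39.2, 20.7 and 23.4 in WT. Its TMEM106B-/- libraries, at 23.5 to 33.3 CPM, lay within the WT range. Rps27l was at -0.16 ± 0.10 and Rps27 at -0.53 ± 0.17, neither called.

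The number of calls depended on single libraries. It was 31 without replicate 1 of the combined genotype, 3, 2 and 4 without its replicates 2, 3 and 4, 24 without WT replicate 1, and 2, 12 and 5 without WT replicates 2, 3 and 4. The median stayed between -0.407 and -0.276 over every alternative run.

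TMEM106B-/- liver had no member called against WT by edgeR (1.05% of all genes were called, 0.365% lower and 0.688% higher), with 11 members at an unadjusted p under 0.05 (15.1% of all genes), 1 called by DESeq2 (3.69% of all genes) and 0 by limma-voom (1.97%). The median was -0.147, 74 of 81 members were below 0, and 8 members did not overlap WT (7.19% of all genes did not). Rpl35a had the smallest p (-0.43 ± 0.13, edgeR adjusted p = 0.113), and Rpl3 stood highest at 0.33 ± 0.16. TDP-43Q331K liver likewise had no call against WT by edgeR (0.263% of all genes were called, 0.108% lower and 0.156% higher), with 48 members at an unadjusted p under 0.05 (15.2% of all genes), 6 called by DESeq2 (2.45% of all genes) and 0 by limma-voom (2.14%). There the median was -0.275 with 75 of 81 members below 0, 34 members did not overlap WT (8.64% of all genes did not), and Rpl35a again had the smallest p (-0.51 ± 0.13, edgeR adjusted p = 0.105). These comparisons share the WT libraries with that of the combined genotype.

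Against the single genotypes the combined genotype had no member called by edgeR in liver. Against TDP-43Q331K (3.94% of all genes called, 1.77% lower and 2.17% higher) the median was -0.048, 2 members had an unadjusted p under 0.05 (20.5% of all genes), and DESeq2 and limma-voom called 1 and 3 (7.88% and 11.4% of all genes). Against TMEM106B-/- (1.04% called, 0.551% lower and 0.485% higher) the median was -0.188 with 80 of 81 members below 0, 11 had an unadjusted p under 0.05 (13.5% of all genes), and both other tools called 1 (DESeq2 3.18% and limma-voom 2.35% of all genes). Rpl22l1 had the smallest p there (-0.65 ± 0.16, edgeR adjusted p = 0.0754). The interaction, the effect of TMEM106B loss with TDP-43Q331K minus that without it, called no member by edgeR (0.688% of all genes, 0.347% lower and 0.341% higher), DESeq2 or limma-voom, with 3 members at an unadjusted p under 0.05 (16.3% of all genes) and a median of 0.101.

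**Figure D3:**
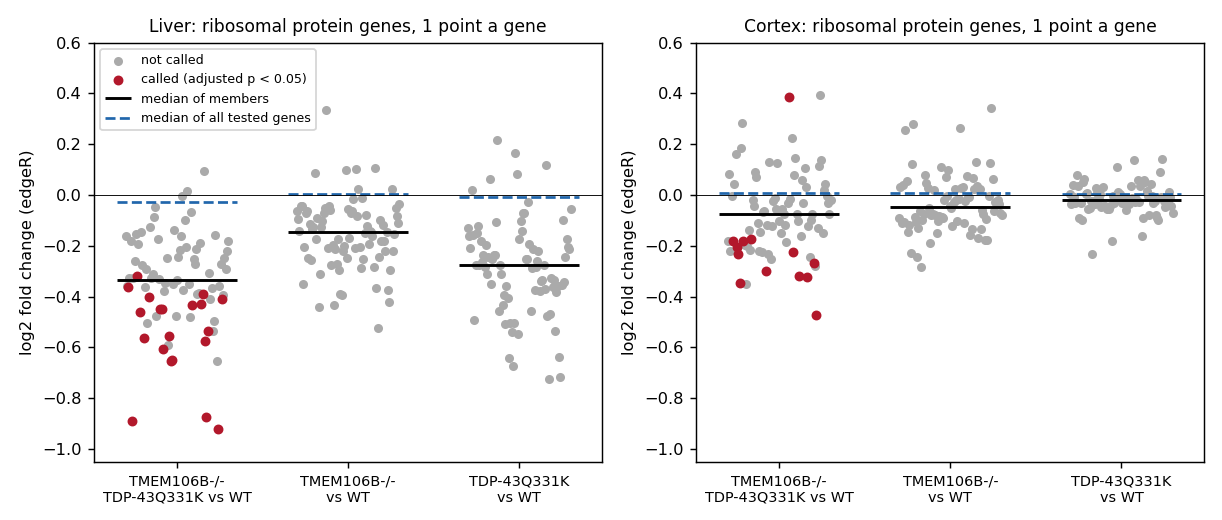
Log2 fold changes of every tested member against WT in liver (left) and cortex (right), 1 point a gene in alphabetical order within each comparison; red points were called by edgeR, black bars are the members' medians and blue dashed bars the medians of all tested genes. Liver medians lie at -0.332, -0.147 and -0.275 for the combined genotype, TMEM106B-/- and TDP-43Q331K, and cortex medians lie nearer 0.

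In liver, shorter members had the lower fold changes against WT. This feature was looked at after the values were seen. Member coding sequences run from 75 bases in Rpl41 to 1257 in Rpl4, with a median of 453. Across 81 members the log2 fold change in TDP-43Q331K against WT had a Spearman correlation of 0.801 with coding length, against 0.133 over 6100 other protein-coding genes of the same length range. Members share libraries and WT samples, so this describes these libraries. For TDP-43Q331K, Rps29 (168 bases) was at -0.72, Rpl38 (210 bases) at -0.67 and Rpl41 at -0.55, whereas Rpl4 was at 0.08, Rpl3 (1209 bases) at 0.22 and Rplp0 (951 bases) at -0.03. The median was -0.372 for the 41 members at or under the median length and -0.174 for the 40 longer ones.

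The correlation was 0.504 in the combined genotype and 0.489 in TMEM106B-/-, both against WT, and 14 of the 20 falls in the combined genotype were in the shorter group of 41. It was -0.723 for the interaction. For the combined genotype it was 0.21 against TMEM106B-/- and ran the other way against TDP-43Q331K, at -0.408 (median -0.018 in shorter and -0.099 in longer members). The comparisons against WT share the WT libraries. Lists of other genes gave, for TDP-43Q331K against WT, a correlation of 0.76 over 82 nuclear respiratory chain genes, 0.551 over 77 mitochondrial ribosomal protein genes and 0.773 over 25 other TOP genes. In the respiratory chain genes the median was -0.214 for the 47 shorter and 0.07 for the 35 longer.

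The same contrast can be given within each library, as the median log2 difference from the WT mean in shorter members minus that in longer ones. It was -0.016, -0.229, -0.189 and -0.123 in the combined genotype, -0.153, -0.076, -0.107 and -0.094 in TMEM106B-/-, -0.162, -0.111, -0.268 and -0.288 in TDP-43Q331K, and -0.112, 0.068, -0.006 and 0.081 in WT. WT replicate 1 lay within the range of the other genotypes, and the other 3 WT libraries lay above every library of those genotypes. In cortex the correlation was 0.118 in the combined genotype, 0.0104 in TMEM106B-/- and -0.00611 in TDP-43Q331K, each against WT.

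**Figure D4:**
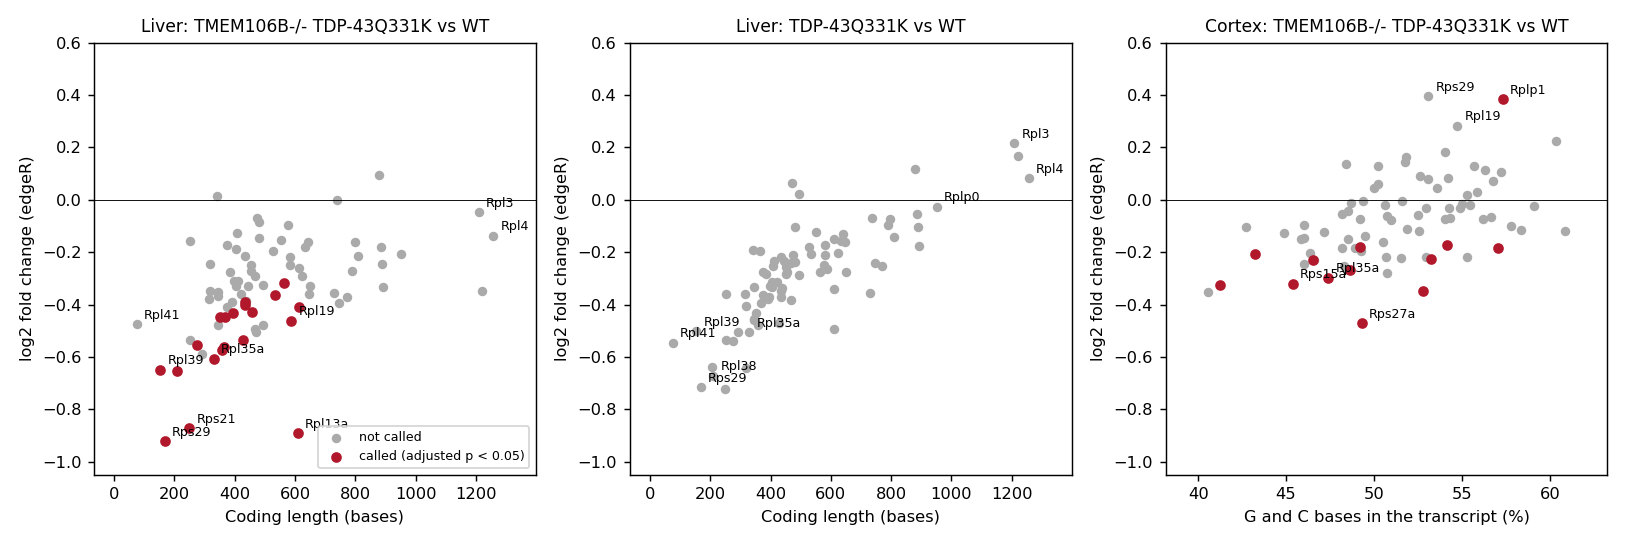
Log2 fold change of each member against coding length in liver, for the combined genotype (left) and TDP-43Q331K (middle) against WT, and against the GC content of the transcript in cortex for the combined genotype (right); red points were called by edgeR. In liver shorter members tend to lie lower, with Rps29 (168 bases) at -0.92 and the longer Rpl13a (609 bases) at -0.89 in the combined genotype, and in cortex the members with positive values lie mostly at higher GC.

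Other features also varied among the liver libraries. Not all of their ranges overlapped between genotypes, and sums of acute phase transcripts in TDP-43Q331K all lay below those in WT. Acute phase transcripts summed to between 9240 and 24300 CPM in the combined genotype, 8960 and 30400 in TMEM106B-/-, 10300 and 11800 in TDP-43Q331K, and 11900 and 25700 in WT. The libraries with the highest sums were combined replicate 1, TMEM106B-/- replicate 4 and WT replicate 2, which also had the highest member share of their genotypes, and 19 members were called in the combined genotype against WT without these 3. Of 10 lymphocyte markers Cd4 was lower, and of 6 astrocyte markers Aqp4 and Gfap were higher. Stellate cell markers summed to 181 to 223 CPM in the combined genotype and 126 to 185 in WT, with 3 of 9 higher and none lower. Hepatocyte markers fell in 2 of 5 (summed 93200 to 127000 CPM in the combined genotype and 110000 to 129000 in WT). Liver endothelial markers summed to 209 to 250 CPM in TMEM106B-/- and 260 to 343 in WT, which did not overlap. They summed to 236 to 297 CPM in the combined genotype and 238 to 277 in TDP-43Q331K. None of these markers was at 0 counts throughout, and the part of cell composition in the result was not tested.

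Lists of related function were described in liver of the combined genotype against WT, where 2.85% of all genes were called lower, 4.19% higher, and 22.6% had an unadjusted p under 0.05. Among 25 other TOP genes 3 fell, among them Eef1d of the elongation factor complex (-0.34 ± 0.08) and the ribosomal protein Rps3a1 (-0.42 ± 0.12), and the list's median was -0.173. Of 9 non-coding snoRNA host genes, which also begin with pyrimidines, Zfas1 (-0.67 ± 0.14) and Gas5 (-0.37 ± 0.10) fell and the median was -0.366. No ribosome assembly gene of 43 was called by edgeR (median -0.233, 12 at an unadjusted p under 0.05), and none of 19 regulators around mTOR and Myc (median 0.056, 6 at an unadjusted p under 0.05). Of 77 mitochondrial ribosomal protein genes none was called by edgeR (median 0.036, 16 at an unadjusted p under 0.05). In 82 nuclear respiratory chain genes Uqcrc2 rose and Cox6b2 fell.

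In cortex the combined genotype showed smaller and mixed changes. Of 80 members 12 fell and 1 rose against WT by edgeR, with 2.36% of all tested genes called lower and 2.53% higher (4.89% in either direction). The median was -0.0753 where that of all genes was 0.00894, and 59 of 80 members were below 0. Members took between 0.543% and 0.632% of counts in the combined genotype, 0.566% and 0.618% in TMEM106B-/-, 0.535% and 0.639% in TDP-43Q331K, and 0.571% and 0.662% in WT, all overlapping. Taken singly, 4 of 80 members did not overlap WT in the combined genotype (5.92% of all genes did not). In TMEM106B-/- 9 did not (5.89% of all genes), and in TDP-43Q331K 1 did not (0.852%).

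Rps15a, a small subunit protein, had the smallest p. It was at 64.7, 70.3, 55.9, 56.8 and 66.7 CPM in the combined genotype, 71.3, 70.5, 73.4, 73 and 63.9 in TMEM106B-/-, between 62.4 and 73.2 (median 72) in TDP-43Q331K, and 79.7, 76, 76.5, 80.8 and 79.4 in WT. No library of another genotype reached the lowest WT library, and the combined genotype was 1.25-fold lower (-0.32 ± 0.06, edgeR adjusted p = 0.00474). The other falls included Rps27a, a ubiquitin fusion (-0.47 ± 0.13), Rpl18 (-0.35 ± 0.09), Rps20 (-0.32 ± 0.09), Rpl35a (-0.30 ± 0.08), Rps26 at the mRNA exit (-0.27 ± 0.07), the exit tunnel proteins Rpl17 (-0.23 ± 0.06) and Rpl26 (-0.17 ± 0.05), Rpl15 (-0.21 ± 0.05), Rpl13 (-0.18 ± 0.05) and Rpl21 (-0.18 ± 0.05). For Rps27a the libraries of the combined genotype had 19.2, 24.3, 13.3, 14.7 and 26.2 CPM and those of WT 27.4, 27, 27.7, 25.1 and 28.6. Its replicates 3 and 4 were lowest, and replicate 5 lay within the WT range.

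Rplp1 rose. It had 143, 151, 184, 162 and 177 CPM in the combined genotype, 151, 170.0, 153, 141 and 138 in TMEM106B-/-, between 110.2 and 152 (median 123) in TDP-43Q331K, and 128, 129, 128, 124 and 117 in WT. All libraries of the combined genotype and of TMEM106B-/- lay above all WT libraries, and the combined genotype was 1.31-fold higher than WT (0.38 ± 0.09, edgeR adjusted p = 0.0163). Its partners in the stalk were at -0.03 ± 0.04 (Rplp0), -0.02 ± 0.08 (Rplp2) and -0.00 ± 0.05 (Rpl12). Rplp1 was also the 1 member called against TDP-43Q331K in cortex (0.35 ± 0.08, edgeR adjusted p = 0.0418, with 0.8% of all genes called higher, 0.602% lower and 1.4% in either direction), where 31 members and 18.1% of all genes had an unadjusted p under 0.05. Rps29 had a log2 fold change of 0.39 ± 0.12 against WT in the combined genotype (edgeR adjusted p = 0.0527) and Rpl19 of 0.28 ± 0.12 (edgeR adjusted p = 0.163), and neither was called, although no Rps29 library of the combined genotype (68.6 to 97.2 CPM) reached down to WT (51 to 64.8 CPM). Rpl19 had 27, 26.3, 25.1, 20.5 and 24.7 CPM in the combined genotype, 23.9, 34.5, 23.7, 20.7 and 20.8 in TMEM106B-/-, between 17.5 and 25.8 (median 20.8) in TDP-43Q331K, and 20.4, 20.6, 21.5, 19.5 and 19.5 in WT.

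**Figure D5:**
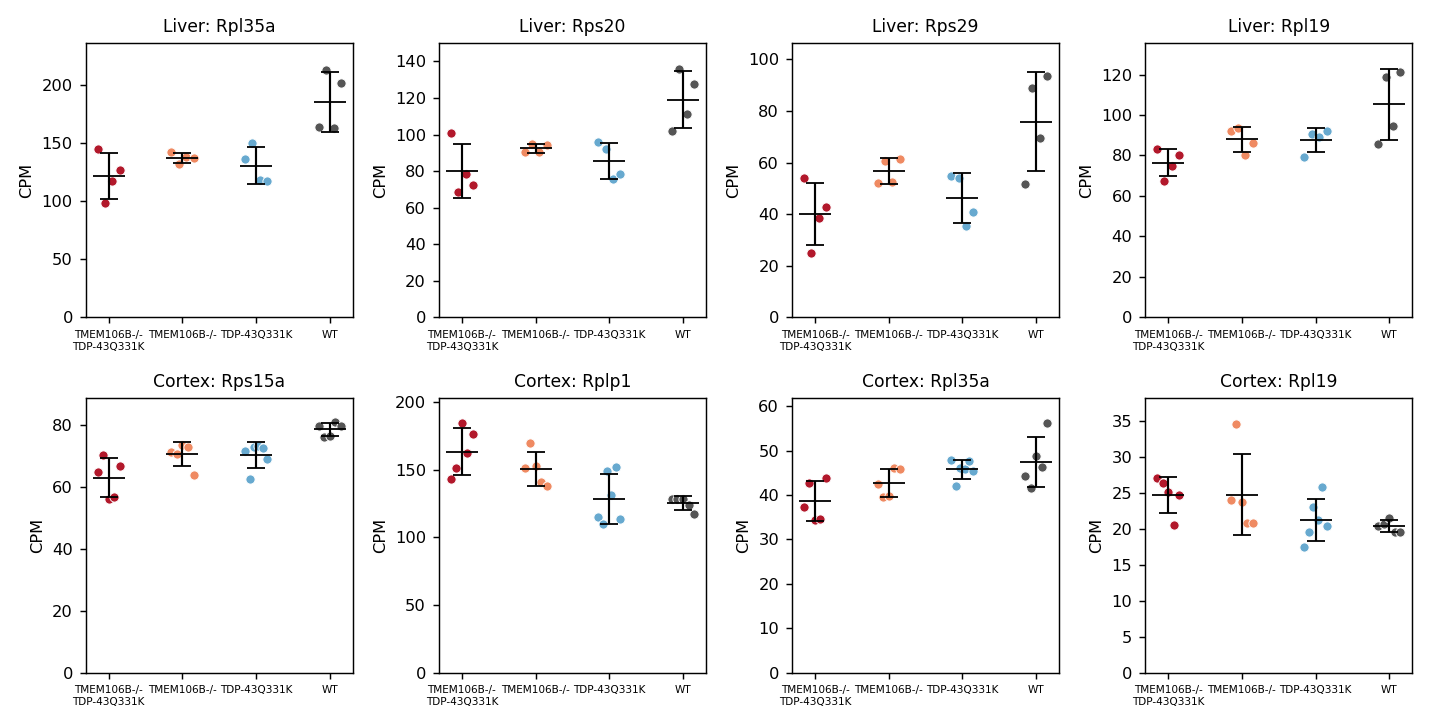
CPM of 4 members in liver (top) and 4 in cortex (bottom) for every library, grouped from the combined genotype on the left to WT on the right; points are libraries, and the bar and whiskers are mean and SD. Rpl35a lies below WT in liver, Rps15a below and Rplp1 above WT in cortex, and Rpl19 is lower in the combined genotype than in WT in liver but not in cortex.

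Calls in cortex also rested on single libraries. Their number was 6, 21, 1, 2 and 32 without replicates 1 to 5 of the combined genotype, and 7, 4, 7 and 4 without WT replicates 2, 3, 4 and 5. The mitochondrial share of counts was 5.07% and 4.42% in replicates 3 and 4 of the combined genotype, against 3.34% to 4.11% in all other cortex libraries.

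Cell type markers moved with genotype in cortex beside these calls. All 7 oligodendrocyte markers fell, and their sum was 1120 to 2500 CPM in the combined genotype, 1030 to 1470 in TMEM106B-/-, 1940 to 3130 in TDP-43Q331K and 2890 to 3260 in WT. Meningeal fibroblast markers summed to 423 to 857 CPM in the combined genotype, 270 to 989 in TMEM106B-/-, 177 to 402 in TDP-43Q331K and 113 to 352 in WT, with 2 of 8 higher and all 8 above 0. Macrophage markers rose in 3 of 7 tested (Cd68, Cd163 and Adgre1; sum 131 to 154 CPM in the combined genotype and 127 to 133 in WT) and endothelial markers in 3 of 8 (Cdh5, Eng and Lyve1; 85.2 to 93.9 and 68.9 to 74.7 CPM in the same order). Astrocyte markers rose in 2 of 6 (Slc1a3 and Gja1), Tmem119 was the 1 of 8 microglial markers that rose, and Ptprc the 1 of 3 tested lymphocyte markers. Of 5 red blood cell markers Hba-a1 fell. No marker of these lists was at 0 throughout. Their part in the member changes was not tested.

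Fold changes in cortex had a higher correlation with GC content than with length. For the combined genotype against WT the Spearman correlation with the GC content of the annotated transcript was 0.502 over 80 members and 0.131 over 14944 other protein-coding genes, and with that of the coding sequence alone it was 0.431 over the members. In TMEM106B-/- against WT it was 0.424 over members and 0.223 over the others. Of the 40 members over the median GC of 51.6%, 17 were above 0 and 4 fell, with a median of -0.02. Of the 40 at or under it, 4 were above 0 and 8 fell, with a median of -0.16. Rplp1 has a GC content of 57.3%, Rpl19 of 54.7% and Rps29 of 53.1%, against 45.4% for Rps15a and 47.4% for Rpl35a. The correlation with GC in liver was -0.0483.

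The remaining cortex comparisons called no member by edgeR. In TMEM106B-/- against WT (5.16% of all genes called, 2.39% lower and 2.78% higher) the median was -0.045, 13 members had an unadjusted p under 0.05 (19% of all genes), and DESeq2 and limma-voom called 2 and 3 (6.96% and 8.25% of all genes). The smallest p was that of Rplp1 (0.27 ± 0.09, edgeR adjusted p = 0.0814). In TDP-43Q331K against WT (0% called) 1 member, Rps15a, had an unadjusted p under 0.05 (-0.16 ± 0.06), as 4.88% of all genes did, and neither other tool called any. In the combined genotype against TMEM106B-/- (0% called) 3 had an unadjusted p under 0.05 (4.96% of all genes), and for the interaction (0% called) 0 did (4.57% of all genes). DESeq2 and limma-voom called 0 members in both.

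Among related genes in cortex of the combined genotype against WT, 2 of 25 other TOP genes rose (Naca and Eif3h, 0.12 ± 0.03 and 0.14 ± 0.04) and 2 fell (Hnrnpa1 at -0.37 ± 0.08 and Eef1b2 at -0.28 ± 0.08). Of 85 nuclear respiratory chain genes 5 fell, among them the small complex subunits Cox7c (-0.34 ± 0.08) and Atp5e (-0.34 ± 0.08). Of 77 mitochondrial ribosomal protein genes 2 rose (Mrpl22 and Mrpl58) and 2 fell (Mrps31 and Mrps26). No assembly gene of 43, mTOR or Myc regulator of 19 or snoRNA host of 9 was called by edgeR, with 5, 3 and 6 at an unadjusted p under 0.05 (21.5% of all genes).

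Between tissues, Rpl35a, Rps20, Rpl18 and Rpl26 fell in the combined genotype against WT in both, which is 20% of the liver calls and 30.8% of the cortex calls. Of all tested members, 20 of 81 were called in liver and 13 of 80 in cortex, and whether the overlap exceeds these shares was not tested. All 12 members that fell in cortex had a log2 fold change below 0 in liver, where 79 of 81 members did. Of the 20 liver falls 14 were below 0 in cortex, where 59 of 80 members were. Over 80 members the fold changes had a Spearman correlation of 0.0803 between the tissues. Rps29 was at 0.39 ± 0.12 in cortex and -0.92 ± 0.22 in liver, and Rpl19 at 0.28 ± 0.12 in cortex and -0.46 ± 0.11 in liver. The difference between the tissues was not tested, since the tables were fitted separately.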

How the data were processed

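Per the labels, total RNA was used for directional libraries. Per the submitters' processing notes, Trim Galore, cutadapt and FastQC were run and the builds were GRCm38 and mm10; the aligner and the counting program were not given in the sources used here. For each tissue the authors deposited whole-number counts per gene for 55536 genes. A further column of the cortex table, 1 in all, matches no label and was left out.

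Each tissue was fitted with its 4 genotypes in edgeR 4.0.16 (R 4.3.3): filterByExpr (minimum count 10, total 15) kept 16710 genes in the liver table and 21248 in the cortex table. TMM factors scaled the libraries, and the robust quasi-likelihood test was two-sided. Genes under a Benjamini-Hochberg adjusted p of 0.05 over all genes were called. Errors are SE for log2 fold changes and SD elsewhere. Liver libraries varied more (common biological coefficient of variation 0.235) than cortex libraries (0.103). On simulated data for the combined genotype against WT, 33% of 1.5-fold and 96% of 3-fold changes were recovered in liver (16710 genes) and 73% and 100% in cortex (21248 genes).

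Members and lists were chosen with earlier results of these data known. Named were Rpl19, called members (the 12 smallest p per comparison), the 6 highest and lowest levels per tissue, paralogs and called members of related lists; coding length, GC and other singled out members were chosen after their values were seen. Coding sequences come from GENCODE M21 (principal transcript) and promoters from RefSeq. Paralogs were aligned with Biopython 1.88. Alternatives were DESeq2 1.42.0, limma-voom (limma 3.58.1), RLE scaling, TMM without members, no count filter, only the compared groups, a replicate block and left-out libraries. A few genes are not reported here by name.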

Additional observations from a re-analysis of the deposited data

Results flagged for a closer look

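Of 144 groups, which are the called members with Rpl19 and the members' share of counts in each genotype of each tissue, 6 held a library far from the others by Dixon's criterion, all in cortex, where chance gives about 1 in 20. Over all tested members it was 28 of 320 groups in cortex and 10 of 324 in liver, and the library was WT replicate 5 in 8 of the cortex groups, TMEM106B-/- replicate 2 in 7 and TDP-43Q331K replicate 2 in 7; members share libraries, so these groups are not independent. Rpl19 in TMEM106B-/- replicate 2 was at 34.5 CPM, the other 4 libraries being at 20.7 to 23.9 (gap over range 0.769). In TDP-43Q331K replicate 2, Rpl17 was at 71.3 CPM against 77.1 to 80.5 in the others (0.635) and Rpl18 at 22 CPM against 23.7 to 24.6 (0.653). In WT replicate 5, Rpl15 was at 64.9 CPM against 58.3 to 60.1 (0.721) and Rpl21 at 141 CPM against 128 to 131 (0.784). In WT replicate 3, Rps20 was at 44.7 CPM against 40.9 to 41.7 (0.805).

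For a few members every library of a genotype lay above the WT mean in cortex and below it in liver; the difference between the tissues was not tested, and of these values only the liver falls of Rps29 and Rpl19 in the combined genotype were called. Rps29 differed by 1.32 on the log2 scale (cortex minus liver; 0.395 in cortex and -0.921 in liver) in the combined genotype against WT and by 0.766 in TMEM106B-/- against WT. Rpl19 differed by 0.744 in the combined genotype (0.283 in cortex and -0.462 in liver) and by 0.537 in TMEM106B-/-, and Rps19 by 0.414 in TMEM106B-/- against WT.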

How the results depend on the processing

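Calls of named members were recomputed under alternatives, which gave 573 pairs of a call and a setting. Of these 332 stayed on their side of the threshold, 241 lost their call and 0 changed direction. The medians of the members moved by less than 1 SD in all 223 pairs of a comparison and a setting. This SD is that of a library's mean log2 difference from the WT mean, pooled within genotypes. By genotype it was 0.0946 to 0.163 in liver and 0.0347 to 0.109 in cortex. A median smaller than the SD could reach 0 and still count, so the criterion says little about medians near 0. On leaving out a library 2 such medians crossed 0 (TDP-43Q331K against WT in cortex, up to 0.00913, and the combined genotype against TDP-43Q331K in liver, up to 0.0151). In liver, the count for the combined genotype against WT (20) became 32 with DESeq2, 9 with no filter on low counts and 5 with only the compared groups. Against TDP-43Q331K (0) it became 1 with DESeq2, 3 with limma-voom and 1 without the libraries set apart for acute phase transcripts, and against TMEM106B-/- (0) it became 1, 1 and 1 under the same settings. TMEM106B-/- and TDP-43Q331K against WT (0 each) became 1 and 6 with DESeq2. In cortex, the count against WT (13) became 20 under DESeq2, 25 under limma-voom and 4 when only the compared groups were fitted. TMEM106B-/- against WT (0) became 2, 3 and 4 under these. The combined genotype against TDP-43Q331K (1) became 8 under DESeq2, 20 under limma-voom, and 0 without a filter or when fitted on the compared groups alone. Leaving out each library gave 2 to 31 calls in liver for the combined genotype against WT, and in cortex 1 to 32, with 0 to 24 against TDP-43Q331K and 0 to 1 for TMEM106B-/- against WT. The cause of these shifts was not tested.

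Replicate numbers showed no clear pairing of the samples, although low correlations cannot exclude it. The correlation of deviations between same-numbered libraries had a median of -0.0493 in liver and -0.0157 in cortex. It was over 0.1 in 5 of 24 pairs in liver and 5 of 30 in cortex, with highest values of 0.347 and 0.21. Between libraries of unlike numbers the medians were 0.0118 in liver and 0.0108 in cortex. With replicate number as a block, the combined genotype had 8 members called against WT in liver and 9 in cortex, and 0 against TDP-43Q331K in cortex.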
